A study of Mus musculus with 12 samples.

Results

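Smooth muscle cells and fibroblasts form the wall and the connective tissue around the colon epithelium, and 8 genes that mark them were followed here through every library that listed them: Myh11, Cnn1, Tagln, Des, Vim, Col6a2, Pdgfra and Pdgfrb. They were picked by symbol as typical of these cells, with earlier results of these data known, and make up 8 of the 12098 genes listed in any library. Promoter CpG methylation was measured in isolated colon epithelial cells of C57BL/6 mice. In 3 mice Dnmt3b was induced by doxycycline in the drinking water (0.5 g/l over 3 months, with fresh water every 3 days), and 3 control mice were given regular water; both groups ate chow freely. The DNA of each mouse was split into short fragments of 40 to 120 nt and long fragments of 120 to 220 nt, which gave 12 libraries. The labels do not say which promoter or cell type drives Dnmt3b, whether the control mice carried the transgene, or how old the mice were, and since the induced mice alone received doxycycline, the drug and the induction cannot be told apart.

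Smooth muscle cells contract through a myosin and actin apparatus held in place by intermediate filaments, and their contractile genes are switched on together by the serum response factor and its partner myocardin. Fibroblasts build the collagen matrix and respond to platelet-derived growth factors (PDGF) through receptor tyrosine kinases. Dnmt3b is a DNA methyltransferase that can methylate CpG sites that carried no methyl group, and methylated CpG-rich promoters are in general silent. In colon epithelium these genes are not part of the normal programme. Expression was not measured here, so every value below is a methylation level and says nothing of how much of a gene's RNA was made.

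MspI, the enzyme used to cut the DNA, recognises CCGG, so a promoter is seen where such sites lie a suitable distance apart. The windows below run from 250 bases before to 50 bases after the RefSeq transcription start (build GRCm38.p6) and are shown to let the reader see how many CpGs and CCGG sites the start regions of 4 members hold. Each is written 5′ to 3′ on the strand of the gene with CCGG in capitals. They are RefSeq windows, not the authors' promoter windows, whose limits the sources used here do not give.

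Des, chr1:75360042-75360341, plus strand: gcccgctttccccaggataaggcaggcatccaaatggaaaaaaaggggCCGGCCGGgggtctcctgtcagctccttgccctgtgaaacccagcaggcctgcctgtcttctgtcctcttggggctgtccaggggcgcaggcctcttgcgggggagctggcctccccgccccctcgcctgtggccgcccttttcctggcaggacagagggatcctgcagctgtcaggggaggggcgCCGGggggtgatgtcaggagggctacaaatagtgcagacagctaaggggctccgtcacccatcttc

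Vim, chr2:13574061-13574360, plus strand: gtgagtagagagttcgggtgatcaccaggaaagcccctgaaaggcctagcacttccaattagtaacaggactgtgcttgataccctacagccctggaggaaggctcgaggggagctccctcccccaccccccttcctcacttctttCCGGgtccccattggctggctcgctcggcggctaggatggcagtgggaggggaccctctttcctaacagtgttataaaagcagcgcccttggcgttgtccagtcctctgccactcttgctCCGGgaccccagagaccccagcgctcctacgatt

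Col6a2, chr10:76623355-76623654, minus strand: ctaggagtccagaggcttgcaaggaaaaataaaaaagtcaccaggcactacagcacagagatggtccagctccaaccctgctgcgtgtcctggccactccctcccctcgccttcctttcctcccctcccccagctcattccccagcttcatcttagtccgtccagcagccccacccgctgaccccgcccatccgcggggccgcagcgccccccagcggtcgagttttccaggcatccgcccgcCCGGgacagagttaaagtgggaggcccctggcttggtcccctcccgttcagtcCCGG

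Cnn1, chr9:22099003-22099302, plus strand: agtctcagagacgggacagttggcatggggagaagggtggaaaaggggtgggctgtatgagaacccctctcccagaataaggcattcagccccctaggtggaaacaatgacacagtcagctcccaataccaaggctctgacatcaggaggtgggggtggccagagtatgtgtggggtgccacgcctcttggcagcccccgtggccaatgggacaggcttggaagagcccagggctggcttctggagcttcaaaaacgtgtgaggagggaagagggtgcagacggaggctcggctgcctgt

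The Des window held 11 CpGs and 3 CCGG sites, the starts of which lay 4 and 182 bases apart. The Vim window held 11 CpGs and 2 CCGG sites 120 bases apart, and the Col6a2 window 16 CpGs and 2 CCGG sites 53 bases apart. The Cnn1 window held 6 CpGs and no CCGG, so the CpGs measured for Cnn1 lay at least in part outside these 300 bases. CCGG is its own reverse complement, so 1 search covers both strands, and it was found in 52.8% of all 32851 RefSeq windows. The windows of genes listed in any library held a median of 21.0 CpGs and had CCGG in 83.2% of cases, against 4.0 CpGs and 34.9% for genes listed in no library. RefSeq windows were found for 5 of the 8 genes: Des, Vim, Col6a2, Cnn1 and Pdgfra. Of these, 6 windows in all, the Col6a2 window shown had the most CpGs (16), under the median of listed genes, and Pdgfra had 5.

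Not every member was seen in each fraction. All 6 short-fragment libraries listed 7 members and did not list Pdgfrb. All 6 long-fragment libraries listed Des, Vim and Pdgfra; Pdgfrb was listed in 5 of them, Cnn1 in 1, and Myh11, Tagln and Col6a2 in none. The test was therefore possible for 7 members (short) and 3 members (long). The groups were compared with limma across all genes listed in all 6 libraries of a fraction, and "rose" below means a Benjamini-Hochberg adjusted p under 0.05 in that fit.

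In the short fraction 6 of the 7 tested members rose, where 27.6% of all 10027 genes tested did. The induced and control values did not overlap, with the induced ones higher, for 7 of 7 members and for 39.5% of all genes. In the long fraction 3 of 3 tested members rose (23.2% of 6127 genes) and 3 of 3 had groups that did not overlap (38.2% of genes). These counts changed when 1 library was left out: 3 members were called among short fragments when any control mouse or induced mouse 2 was left out and 5 without induced mouse 3, and 0 among long fragments when any control mouse or induced mouse 2 was left out and 2 without induced mouse 3. Fewer genes were called over all genes too. Without a control mouse there were 2227 to 2309 calls (2773 with all) among short and 885 to 905 (1422 with all) among long fragments. Without induced mouse 2 or 3 there were 2709 and 2688 (short) and 1316 and 1376 (long). The members' median level was 63.3% in induced and 6.46% in control mice in the short fraction, and 65.7% in induced and 1.18% in control mice in the long fraction. Over all genes the median level was 0.793% in induced and 0.133% in control mice among short fragments, and 1.47% in induced and 0.0700% in control mice among long fragments. The members' median difference was 60.1 points in the short and 62.2 points in the long fraction, against 0.500 and 0.943 points over all genes and 49.0 and 54.6 points over the genes that rose.

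**Figure D1:**
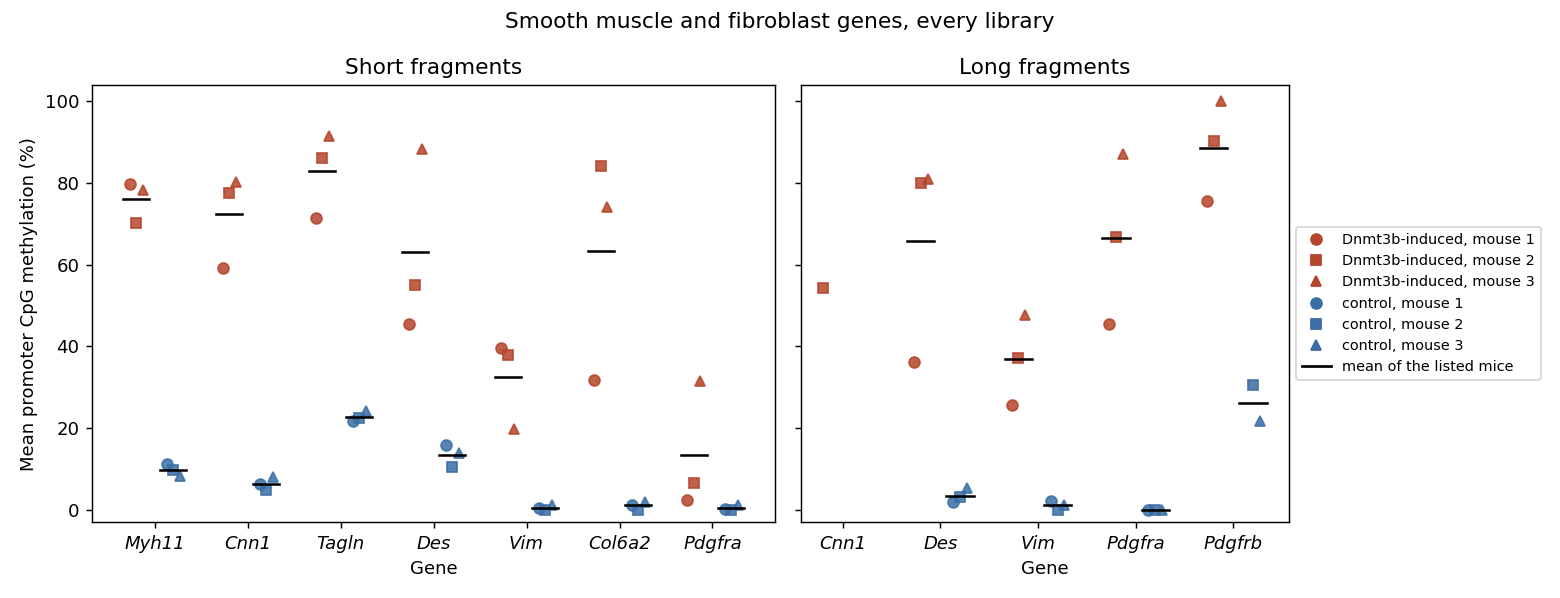
Mean promoter CpG methylation (%) of each member in every library that listed it, short fragments on the left and long fragments on the right. Red symbols are induced mice and blue symbols control mice, with the mouse number given by the shape, and black bars are means of the mice that listed the gene. Every induced value of a gene lies above its control values, by over 40 points for Myh11, Cnn1 and Tagln, while Pdgfra in short fragments reaches 31.47% in 1 induced mouse and stays at 6.60% or less in the other two.

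Myh11 (Gene ID 17880) encodes the myosin heavy chain of smooth muscle, the motor of its contraction. It stood at 79.80%, 70.22% and 78.23% in the induced mice 1, 2 and 3, against 11.28%, 9.71% and 8.27% in the control mice (short fragments). The lowest induced mouse was far above the highest control mouse, and both groups were narrow, with means of 76.1% ± 5.14 in induced and 9.75% ± 1.51 in control mice (SD, n = 3 each). The difference was 66.3 points (SE 2.92, 95% interval 58.6 to 74.1, limma adjusted p = 0.0003), larger than that of 95.5% of all genes tested.

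Cnn1 (12797) encodes calponin 1, an actin-binding protein that tunes contraction. Its short-fragment levels were 59.26%, 77.61% and 80.26% in induced mice and 6.32%, 4.96% and 8.09% in control mice. Induced mouse 1 was the lowest of its group but still more than 50 points above every control. The means were 72.4% ± 11.4 in induced and 6.46% ± 1.57 in control mice, and the difference was 65.9 points (SE 6.29, interval 49.2 to 82.6, adjusted p = 0.00192). The only long-fragment library that listed Cnn1 was that of induced mouse 2, at 54.36%.

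Tagln (21345) encodes transgelin (SM22), an early actin-associated marker of smooth muscle. It had the highest level of the members in both groups of the short fraction, with 71.32%, 86.18% and 91.41% in induced mice and 21.75%, 22.60% and 24.12% in control mice. The control mice lay within 3 points of each other, and their mean of 22.8% ± 1.20 was above the control level of 94.6% of genes, so Tagln was already partly methylated without induction. The induced mean was 83.0% ± 10.4 and the difference 60.1 points (SE 5.71, interval 44.9 to 75.3, adjusted p = 0.00189). Myh11, Cnn1 and Tagln kept an adjusted p under 0.05 when any 1 library was left out (highest 0.0048, 0.0157 and 0.0157).

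Des (13346) encodes desmin, the intermediate filament of muscle cells, and was measured in both fractions. In the short fraction it was 45.59%, 54.98% and 88.31% in induced mice and 15.87%, 10.57% and 14.02% in control mice. In the long fraction it was 36.15%, 79.98% and 81.02% in induced mice and 1.89%, 3.27% and 5.46% in control mice. Mouse 1 was the lowest induced mouse and mouse 3 the highest in both fractions, and the induced mice were spread far more widely than the controls. The means were 63.0% ± 22.5 in induced and 13.5% ± 2.69 in control mice for short fragments, and 65.7% ± 25.6 in induced and 3.54% ± 1.80 in control mice for long fragments. Des rose by 49.5 points (SE 12.3, interval 16.7 to 82.2, adjusted p = 0.0461) in the short and by 62.2 points (SE 14.1, interval 24.5 to 99.8, adjusted p = 0.0415) in the long fraction. These calls sat near the threshold. The short-fragment call was lost when control mouse 1, 2, 3 or induced mouse 2 was left out (adjusted p 0.137, 0.151, 0.143 and 0.0967), and the long-fragment call without any control mouse or induced mouse 2 or 3 (0.142, 0.138, 0.134, 0.119 and 0.113).

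Vim (22352) encodes vimentin, the intermediate filament of fibroblasts and other mesenchymal cells. It was at 39.71%, 38.00% and 19.90% in induced mice and 0.47%, 0.00% and 1.23% in control mice among short fragments, and at 25.78%, 37.17% and 47.80% in induced mice and 2.22%, 0.03% and 1.30% in control mice among long fragments. Controls were all under 3%, and no induced mouse reached 50% in either fraction. The order of the induced mice was reversed between the fractions: mouse 3 was lowest among short and highest among long fragments. The means were 32.5% ± 11.0 in induced and 0.567% ± 0.621 in control mice (short) and 36.9% ± 11.0 in induced and 1.18% ± 1.10 in control mice (long). Vim rose by 32.0 points (SE 5.99, interval 16.0 to 47.9, adjusted p = 0.018) and 35.7 points (SE 6.07, interval 19.5 to 52.0, adjusted p = 0.0174). Leaving out any control mouse or induced mouse 2 put the adjusted p at 0.0633 to 0.0753 in the short and 0.064 to 0.0769 in the long fraction. On the mean of both libraries of each mouse the difference was 33.9 points (limma adjusted p = 0.000266). Because the induced mice ran in opposite order in the 2 fractions, this mean evens out their spread. The fractions can also read different CpGs, so this adjusted p does not make the call in either fraction firmer.

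Col6a2 (12834) encodes a chain of collagen VI, a microfibrillar collagen laid down by fibroblasts and muscle cells. It stood at 31.70%, 84.10% and 74.12% in induced mice and 1.29%, 0.05% and 2.03% in control mice. Induced mouse 1 was well below the other two, and the SD of the induced group, 27.8 points around a mean of 63.3%, was the largest of the members, against 1.12% ± 1.0 in control mice. The difference was 62.2 points (SE 15.2, interval 21.9 to 102.5, adjusted p = 0.0432). Without any control mouse, induced mouse 2 or induced mouse 3 the adjusted p was 0.139, 0.139, 0.136, 0.101 and 0.133.

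Pdgfra (18595), the receptor for PDGF-A and other PDGF dimers on fibroblasts, was the member that differed most between the fractions. Among short fragments it was 2.38%, 6.60% and 31.47% in induced mice and 0.12%, 0.00% and 1.30% in control mice. Among long fragments it was 45.45%, 66.88% and 87.03% in induced mice and 0% in all 3 control mice. Mouse 3 was the highest and mouse 1 the lowest induced mouse in both. The short-fragment means of 13.5% ± 15.7 in induced and 0.473% ± 0.718 in control mice differed by 13.0 points (SE 8.57, interval -9.78 to 35.8), which did not pass (adjusted p = 0.417) and was 4.02 points without induced mouse 3. The long-fragment mean was 66.5% ± 20.8 in induced mice, and the difference of 66.5 points passed (SE 11.4, interval 36.0 to 97.0, adjusted p = 0.0179). That call was lost on leaving out control mouse 1, 2, 3 or induced mouse 2 (adjusted p 0.0776, 0.0766, 0.0781 and 0.0654).

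Pdgfrb (18596), the receptor for PDGF-B that smooth muscle cells and pericytes carry, was listed among long fragments only. Its levels were 75.71%, 90.17% and 100% in induced mice, and 30.56% and 21.69% in control mice 2 and 3, with control mouse 1 not listed. All induced mice were above both controls, with means of 88.6% ± 12.2 (SD, n = 3) in induced and 26.1% ± 6.27 (SD, n = 2) in control mice. In a fit over the 7631 genes listed in at least 2 mice of each group, of which 20.7% rose, the difference was 62.5 points (SE 9.09, interval 35.4 to 89.6, adjusted p = 0.0244). The call was lost without induced mouse 2 (adjusted p = 0.0986) or induced mouse 3 (0.0526). Leaving out either control mouse (0.118 and 0.149) leaves 1 control mouse, which is then assumed to vary like the induced mice.

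**Figure D2:**
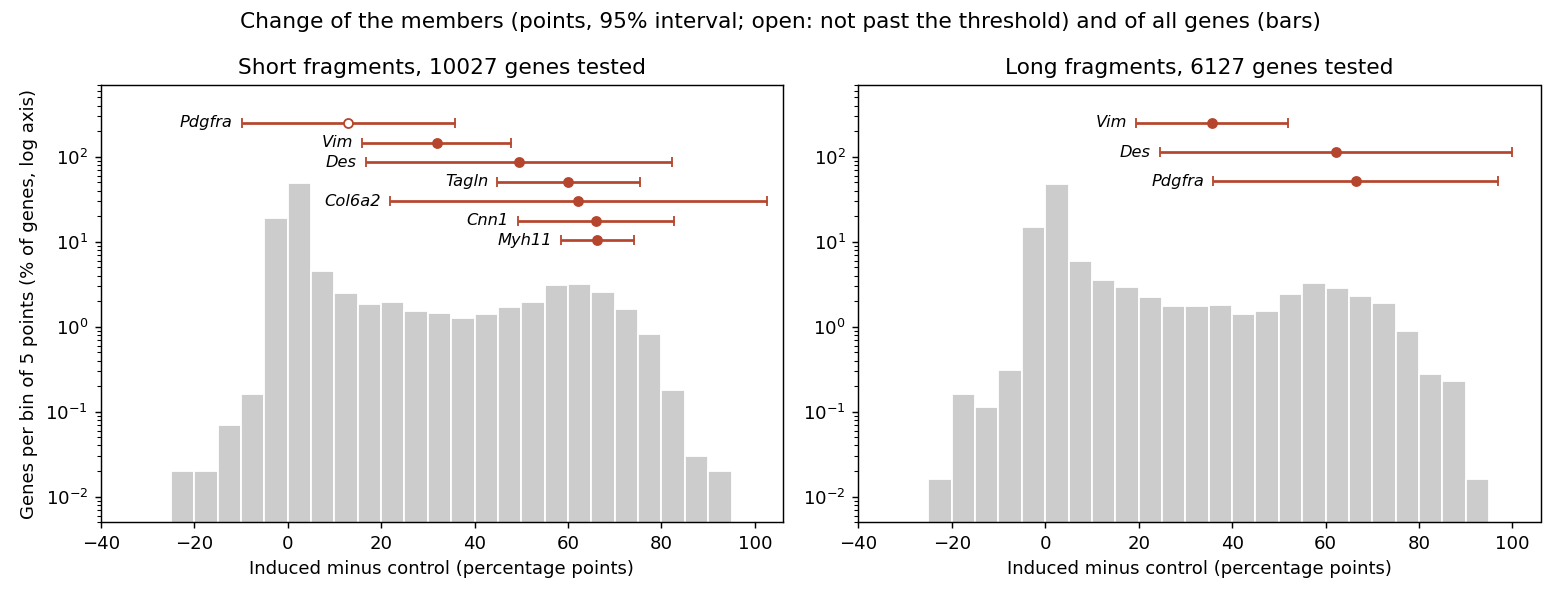
Difference in promoter methylation, induced minus control in percentage points, for all genes tested (grey bars, percent of genes in bins of 5 points on a log axis) and for the tested members (red points with 95% intervals, filled where the gene rose; their height only separates them). Most genes lie near 0, whereas 5 of the 7 members in short fragments and Des and Pdgfra in long fragments lie between 49 and 67 points, among the minority of strongly changed genes.

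The order of the levels in induced mice of the short fraction ran from Tagln (83.0%) over Myh11 (76.1%), Cnn1 (72.4%), Col6a2 (63.3%) and Des (63.0%) to Vim (32.5%) and Pdgfra (13.5%). The ranges over mice of neighbours in this order overlapped, except that all induced values of Des were above those of Vim. In control mice the order was Tagln (22.8%), Des (13.5%), Myh11 (9.75%), Cnn1 (6.46%), Col6a2 (1.12%), Vim (0.567%) and Pdgfra (0.473%). There the ranges of Tagln and Des, of Myh11 and Cnn1 and of Cnn1 and Col6a2 did not overlap, and those of Des and Myh11, Col6a2 and Vim, and Vim and Pdgfra did. Among these members the 4 with the highest control levels encode smooth muscle proteins. The 3 lowest, Col6a2, Vim and Pdgfra, encode fibroblast or mesenchymal ones. The longer lists described below did not show this order. Their median control level was 0.675% for smooth muscle and 1.85% for fibroblast genes among short fragments. Among long fragments it was 0.277% for smooth muscle and 2.48% for fibroblast genes. The control levels of Myh11, Cnn1, Des and Tagln were above those of 87.4% to 94.6% of all genes in the short fraction.

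The induced mice did not share 1 level. Mouse 1 was the lowest of the induced mice for 5 of 7 members in the short and 3 of 3 in the long fraction, and mouse 3 the highest for 4 of 7 and 3 of 3. Among all genes that rose, mouse 1 was the lowest for 50.2% (short) and 48.2% (long) and mouse 3 the highest for 59.0% and 59.6%. The median SD of the tested members in induced mice was 11.4 points (short) and 20.8 points (long, 3 genes). Over all genes that rose it was 6.09 and 8.10 points. These medians are not like for like. The genes that rose had passed a test that favours a small SD, while members were taken whether or not they passed. In the DNA of many cells, a higher level in each cell and a larger share of methylated cells cannot be told apart.

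The 3 members listed in all 12 libraries allow the fractions to be compared mouse by mouse, in an interaction fit over 5309 genes in which 250 genes, or 4.71%, passed in either direction. The change in the long fraction minus that in the short fraction was 53.4 points for Pdgfra (SE 13.6, interval 22.3 to 84.5), which did not pass after adjustment (unadjusted p = 0.00387, limma adjusted p = 0.0668). On an arcsine square root scale the adjusted p was 0.0484, and with 1 mouse left out it ran from 0.00869 to 0.283. It was 12.7 points for Des (SE 18.0, interval -28.4 to 53.8, adjusted p = 0.782) and 3.76 points for Vim (SE 8.67, interval -16.0 to 23.5, adjusted p = 0.871). Des and Vim were listed under the same RefSeq promoter in both fractions. Pdgfra was listed under 1 promoter accession in the short and another in the long libraries, one of 8 genes among the 7763 listed in both fractions (0.103%) with no promoter in common; Bcat1, Idh1, Rtn2, Shroom3, Lima1, Mcart6 and Arhgef10l are the others. For Pdgfra the fragment size and the promoter therefore cannot be told apart. Fragments of different size are different pieces of DNA, so the fractions can read different CpGs under the same promoter too. The control means were 13.5% (short) and 3.54% (long) for Des, and 0.567% (short) and 1.18% (long) for Vim. Fragment size and the CpGs read cannot be told apart for these genes either.

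**Figure D3:**
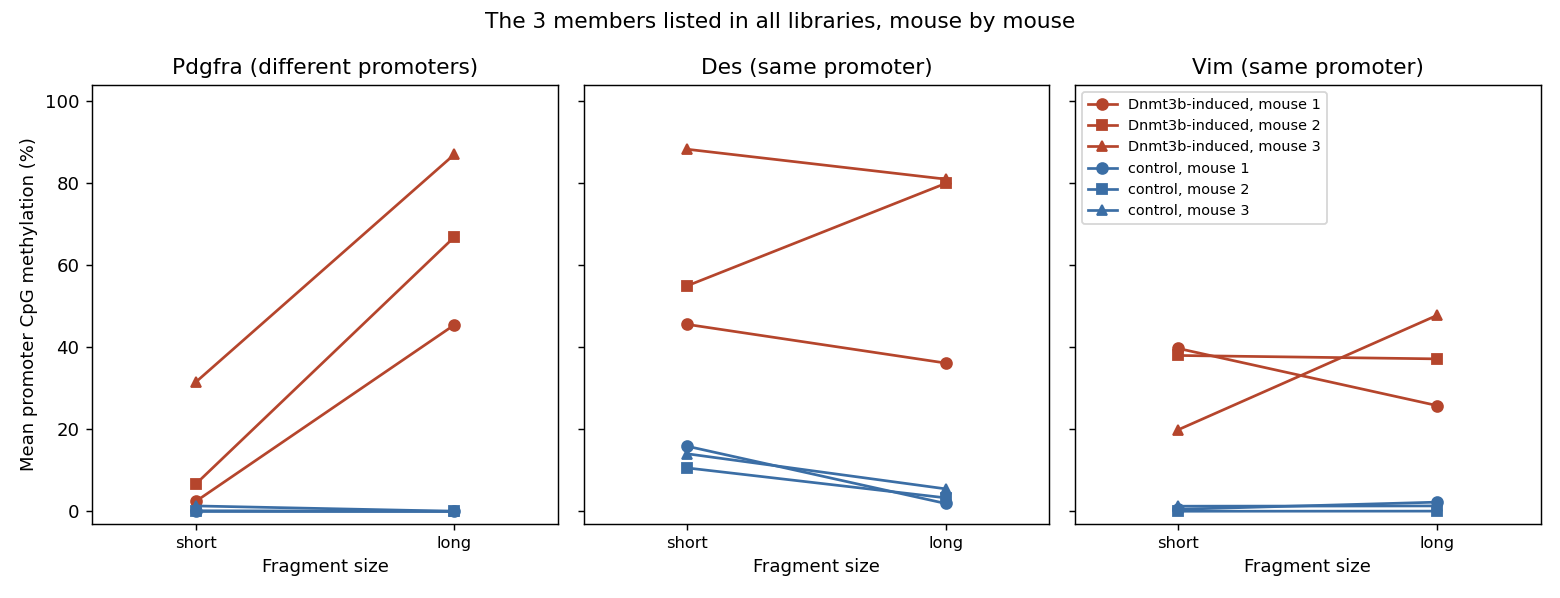
Promoter methylation (%) of Pdgfra, Des and Vim in the short and the long library of each mouse, joined by a line. Red lines are induced and blue lines control mice. All 3 induced mice are higher in long than in short fragments for Pdgfra, where the fractions list different promoters, while the lines of Des and Vim run in both directions.

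Genes with the same roles were described from longer lists chosen from general knowledge, from which the 8 members were left out. Of 40 smooth muscle contractile and regulatory genes 22 were listed among short fragments and 20 could be tested, of which 11 rose (against 27.6% of all genes) and none fell; among long fragments 5 of 13 rose (against 23.2% of all genes). Smtn, which encodes the cytoskeletal protein smoothelin, had a difference in the other direction, with 0.00%, 12.19% and 1.43% in induced mice and 18.48%, 16.36% and 13.18% in control mice among short fragments; all induced values were below all control values, but it did not pass (limma adjusted p = 0.116). Their median level was 21.2% in induced and 0.675% in control mice (short) and 31.6% in induced and 0.277% in control mice (long). Tpm2, the beta-tropomyosin that lies along actin filaments, was at 59.89%, 82.11% and 83.25% in induced mice and 0.00%, 0.36% and 1.0% in control mice (limma adjusted p = 0.00197), and averaged 78.1% in induced and 2.42% in control mice among long fragments (adjusted p = 0.000131). Flnc, a filamin of muscle, averaged 61.7% in induced and 0.283% in control mice (adjusted p = 0.000446). Pgm5, an adhesion-plaque protein of muscle, averaged 64.4% in induced and 6.79% in control mice (adjusted p = 0.00328).

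Ppp1r14a, an inhibitor of myosin phosphatase, rose in both fractions, with means of 58.1% in induced and 0.730% in control mice (short, adjusted p = 0.00123) and 77.5% in induced and 22.9% in control mice (long, adjusted p = 0.00119). Ryr2, a calcium release channel, and Npnt, an integrin ligand, also rose in the long fraction, to 76.8% in induced against 6.21% in control mice (adjusted p = 0.00586) and to 31.6% in induced against 0.0400% in control mice (adjusted p = 0.0121; 0.0587, 0.0593 and 0.0589 without control mouse 1, 2 or 3). Itga7, Itga8, Myocd, Npnt, Ryr2, Synm and Tpm1 were the other genes that rose among short fragments. Of the transcriptional regulators Myocd, the smooth muscle coactivator of the serum response factor, averaged 61.6% in induced and 7.86% in control mice (short, adjusted p = 0.00243) and 49.3% in induced and 0% in control mice among long fragments, which did not pass (adjusted p = 0.0516), while Srf itself was at 0.227% in induced and 0.0300% in control mice (adjusted p = 0.324) and the related coactivator Mkl2 at 0.0633% in induced and 0.0800% in control mice (adjusted p = 0.917). Ppp1r12a, a myosin phosphatase subunit made in most cells, was at 0.200% in induced and 0.260% in control mice (adjusted p = 0.870). Among long fragments the genes with the smallest differences were Srf, at 0.0467% in induced and 0% in control mice, and Mkl1, at 0.227% in induced and 0.0767% in control mice (adjusted p = 0.594 and 0.662).

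The fibroblast and mesenchyme list, of 54 genes, had the larger share of calls. Among short fragments 21 of 24 tested genes rose, against 27.6% of all genes. Among long fragments 13 of 15 rose, against 23.2% of all genes, and none fell in either fraction. The median level of the list was 60.3% in induced and 1.85% in control mice (short). Among long fragments it was 66.2% in induced and 2.48% in control mice. Zeb1, a repressor of epithelial genes, averaged 75.1% in induced and 1.67% in control mice among short fragments (limma adjusted p = 0.000305) and 76.2% in induced and 2.90% in control mice among long fragments (adjusted p = 0.00711). Foxf2, a forkhead factor of gut mesenchyme, averaged 72.2% in induced and 2.01% in control mice (short, adjusted p = 0.00122) and 73.9% in induced and 1.0% in control mice (long, adjusted p = 0.00383). Twist1, a helix-loop-helix factor of mesenchyme, averaged 68.0% in induced and 1.14% in control mice (short, adjusted p = 0.000619) and 68.4% in induced and 1.75% in control mice (long, adjusted p = 0.0071).

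Tbx18, a T-box factor of mural cell precursors, averaged 69.2% in induced and 1.65% in control mice (short, adjusted p = 0.00211), and Lox, which cross-links collagen, 75.4% in induced and 8.48% in control mice (long, adjusted p = 0.00179). Among short fragments the genes that did not pass were Fn1 (adjusted p = 0.0533), Snai1, at 25.7% in induced and 17.4% in control mice (adjusted p = 0.318; among long fragments it rose, at 28.0% in induced and 0.380% in control mice, adjusted p = 0.000726), and Pcdh18, under 1% in both groups (adjusted p = 0.804). Among long fragments they were Col12a1, at 53.1% in induced and 7.53% in control mice (adjusted p = 0.0639), and Twist2, at 63.7% in induced and 32.5% in control mice (adjusted p = 0.272), both of which rose among short fragments. The collagen genes Col1a1, Col1a2, Col3a1, Col6a1 and Col6a3 and the contractile genes Acta2, Actg2, Myl9 and Mylk were listed in no library analysed here. Promoter windows of further list genes that were listed held a median of 18.0 CpGs, against 6.00 for those that were not, so the lists describe mainly CpG-rich promoters.

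**Figure D4:**
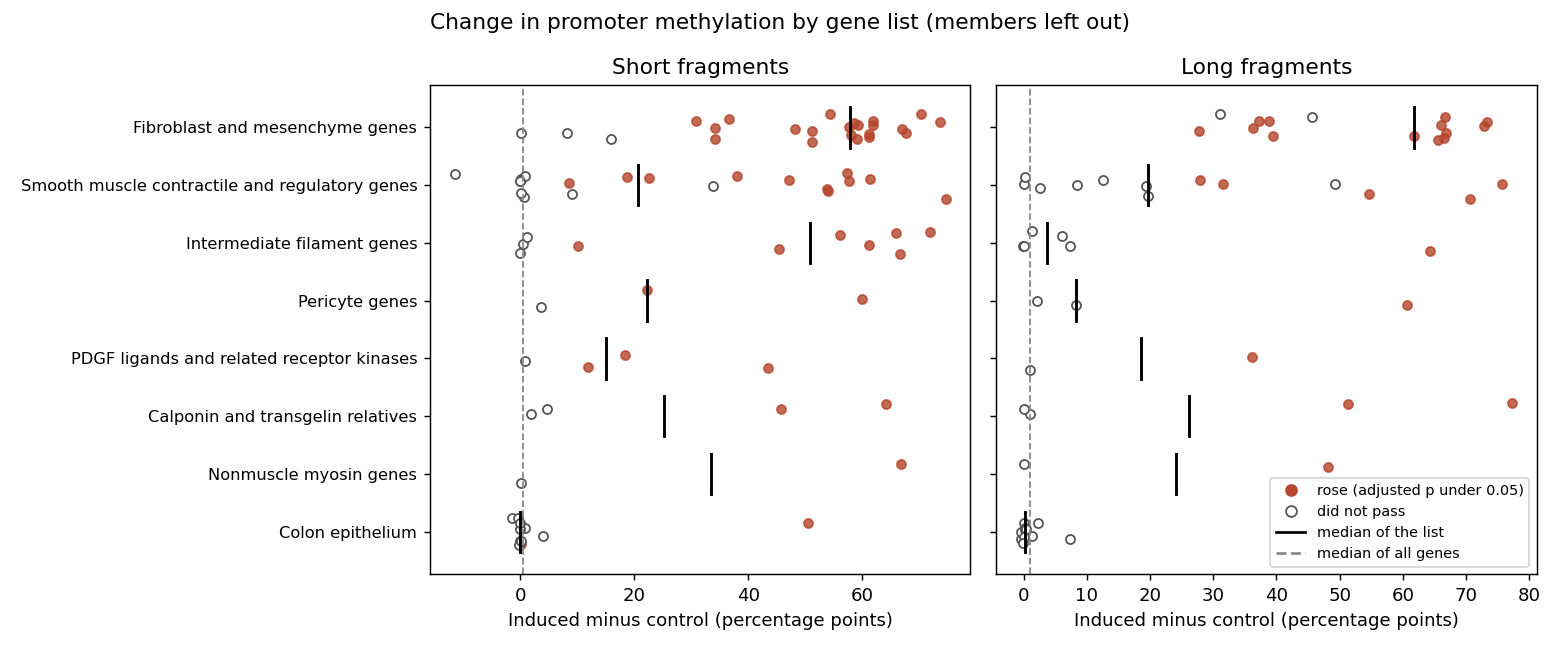
Difference in promoter methylation (induced minus control, percentage points) of each tested gene of the lists, with members left out. Filled red points rose, open points did not pass, black bars are list medians and the dashed line is the median of all genes (0.500 points for short and 0.943 for long fragments). The fibroblast list centres on 57.8 and 61.7 points, the smooth muscle list on 20.7 and 19.7, and the colon epithelium list near 0.

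Close relatives of the members were split. Of the calponin and transgelin relatives 2 of 4 rose in each fraction, against 27.6% (short) and 23.2% (long) of all genes. Cnn2, a calponin found outside smooth muscle too, averaged 46.0% in induced and 0.217% in control mice (short, limma adjusted p = 0.00321) and 85.4% in induced and 34.0% in control mice (long, adjusted p = 0.0112; 0.056 without control mouse 2). Tagln3, a neuronal transgelin, averaged 65.1% in induced and 0.863% in control mice (short, adjusted p = 0.016; 0.0696, 0.0678 and 0.0662 without control mouse 1, 2 or 3) and 82.6% in induced and 5.28% in control mice (long, adjusted p = 0.00465). Cnn3 was at 5.34% in induced and 0.567% in control mice (short, adjusted p = 0.536) and 1.03% in induced and 0.0133% in control mice (long, adjusted p = 0.324). Tagln2, the transgelin of non-muscle cells, was at 57.8% in induced and 55.8% in control mice (short, adjusted p = 0.621) and at 0.147% in induced and 0.0467% in control mice (long, adjusted p = 0.596).

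Of the intermediate filament genes 7 of 10 rose among short fragments, against 27.6% of all genes. Among long fragments 1 of 6 rose, against 23.2% of all genes. The genes tested were not the same. Prph, Ina, Nefl, Nefm and Bfsp1 rose among short fragments and were not tested among long ones. Krt8 and Krt18 were tested among long fragments only. The filaments of neurons Ina, Nefl and Nefm were at 75.8%, 71.5% and 66.8% in induced and 3.91%, 4.98% and 0.980% in control mice (adjusted p = 0.0021, 0.000389 and 0.00164). Nes, the nestin of progenitor cells, averaged 61.4% in induced and 0.150% in control mice (short, adjusted p = 0.00349) and 66.0% in induced and 1.69% in control mice (long, adjusted p = 0.00223). The nuclear lamin genes Lmna and Lmnb1 were under 2% in both groups and fractions and did not pass. Of the nonmuscle myosin genes Myh10 averaged 72.2% in induced and 5.49% in control mice (short, adjusted p = 0.00204) and 58.2% in induced and 10.1% in control mice (long, adjusted p = 0.0154; 0.0667, 0.0713 and 0.0579 without control mouse 1, control mouse 3 or induced mouse 2). Myh9 was under 1% in both groups and fractions (adjusted p = 0.574 and 0.809).

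Of the PDGF ligands and related receptor kinases 3 of 4 rose among short fragments, against 27.6% of all genes. Among long fragments 1 of 2 rose, against 23.2% of all genes. Pdgfb, the ligand of Pdgfrb, was at 14.54%, 18.60% and 21.85% in induced mice and 0.00%, 0.00% and 0.09% in control mice (short, limma adjusted p = 0.00292). Its long-fragment levels were 52.40%, 24.25% and 31.92% in induced mice and 0% in all control mice (adjusted p = 0.0382; 0.0912 to 0.131 without any control mouse or induced mouse 3). Pdgfc, a ligand of Pdgfra, averaged 12.1% in induced and 0.180% in control mice (short, adjusted p = 0.026; 0.0787 to 0.0988 without any control mouse or induced mouse 2 or 3). Pdgfa, another ligand of Pdgfra, was at 1.26% in induced and 0.473% in control mice (short, adjusted p = 0.435) and 0.983% in induced and 0% in control mice (long, adjusted p = 0.481). Flt3, a blood cell kinase of the same receptor class, averaged 45.0% in induced and 1.49% in control mice (short, adjusted p = 0.00998; 0.0507 without control mouse 1).

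Pericyte genes mark the mural cells of small vessels. They rose in 2 of 3 cases (short) and 1 of 3 (long), against 27.6% and 23.2% of all genes. Kcnj8, a potassium channel subunit, averaged 60.6% in induced and 0.670% in control mice (adjusted p = 0.00146), and Notch3 averaged 23.6% in induced and 1.31% in control mice (adjusted p = 0.0247; 0.0724 to 0.0981 without any control mouse or induced mouse 3). Cspg4, the NG2 proteoglycan, averaged 77.7% in induced and 17.0% in control mice among long fragments (adjusted p = 0.0139; 0.0665 and 0.0549 without control mouse 1 or 3). Mcam was at 3.76% in induced and 0.113% in control mice (short, adjusted p = 0.344) and Anpep at 88.9% in induced and 86.7% in control mice (long, adjusted p = 0.400).

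Promoters of other cell types give the setting of these values. Of 11 tested colon epithelium genes 2 rose among short fragments, Cldn4, at 64.2% in induced and 13.7% in control mice (limma adjusted p = 0.0138), and Ezr, at 0.223% in induced and 0.00667% in control mice (adjusted p = 0.0374). None of 11 rose among long fragments, but these were not the same genes. Cldn4 was listed in no long library and Lgr5 was tested in the short fraction only, whereas Krt8 and Krt18 were tested only in the long fraction. Over all genes 27.6% (short) and 23.2% (long) rose. Epithelium genes missing from some long libraries were not tested. Among them Car4 was at 57.15% and 42.23% in induced mice 1 and 2, against 0.00% and 6.17% in control mice 1 and 2. Lgr5 averaged 12.6% in induced mice and 0% in control mice 2 and 3. Krt19 was at 0% in induced mice and averaged 0.0450% in control mice 1 and 3. The mean over the tested epithelium genes was 5.32% to 7.96% in induced and 0.484% to 2.23% in control mice among short fragments. Among long fragments it was 2.86% to 3.72% in induced and 2.10% to 2.64% in control mice. Epcam was at 0.0600% in induced and 0% in control mice (short). Endothelial genes rose in 5 of 6 (short) and 3 of 3 (long) cases, against 27.6% and 23.2% of all genes. Enteric neuron and glia genes rose in 6 of 6 and 3 of 3. Genes of the interstitial cells of Cajal rose in 2 of 2 and 1 of 1. Immune genes rose in 1 of 2 and 2 of 3. Promoter levels do not give the cell makeup of a sample, and its part in the results was not tested. Control mouse 2 stood apart at X-linked promoters, with a median of 0.0650% (short) and 0% (long). The other control libraries had 33.2% to 37.0% and the induced libraries 48.9% to 62.4%. The cause was not tested, and no member is X-linked.

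The genes with levels most like each member's, by the mean absolute difference over the 6 libraries of a fraction, were of many kinds. For Myh11 they were Dner (2.15 points) and Nell1 (2.31), for Cnn1 Tnfsf11 (1.64) and Dbx1 (1.86), and for Tagln Gp1bb (3.21) and Pcbp3 (4.35). Des had St8sia1 (5.21) and Rnf144b (5.36) among short and Meis1 (2.18) and Ptpn5 (2.24) among long fragments. For Vim they were Mtap1a (1.12) and Hoxa9 (1.65) in the short and Casc4 (1.96) and Ism1 (2.03) in the long fraction. Col6a2 was nearest to Ppp1r16b (2.83) and Slc47a2 (3.77). For Pdgfra they were Kcnh8 (1.58) and Brunol6 (1.59) in the short and Car7 (1.39) and Pou3f1 (1.73) in the long fraction. No gene had values identical to a member's in all libraries.

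Genes next to the members on the chromosome were taken from the RefSeq order of protein-coding genes in GRCm38.p6, a choice made after values were seen. Of 16 neighbours 8 could be tested among short fragments, of which 3 (37.5%) rose, against 27.6% of all genes, and 4 among long fragments, of which 2 rose, against 23.2% of all genes. Tagln, at 83.0% in induced and 22.8% in control mice, lies between Pcsk7, at 0.0267% in both groups, and Sidt2, at 0.303% in induced and 0.0533% in control mice (limma adjusted p = 0.296). Nde1 beside Myh11 was at 0.627% in induced and 0.0300% in control mice (adjusted p = 0.489), and Ecsit beside Cnn1 at 0.490% in induced and 0% in control mice (adjusted p = 0.553). Des lies between Dnpep, at 15.0% in induced and 12.4% in control mice (adjusted p = 0.413), and Speg, a muscle kinase, at 73.5% in induced and 14.5% in control mice (adjusted p = 0.000619). Gsx2, a homeobox gene beside Pdgfra, was at 75.9% in induced and 3.28% in control mice (short, adjusted p = 0.00136) and 78.5% in induced and 2.62% in control mice (long, adjusted p = 0.000788). St8sia6 beside Vim averaged 60.5% in induced and 2.86% in control mice (short, adjusted p = 0.00382) and 67.7% in induced and 4.10% in control mice (long, adjusted p = 0.00529).

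**Figure D5:**
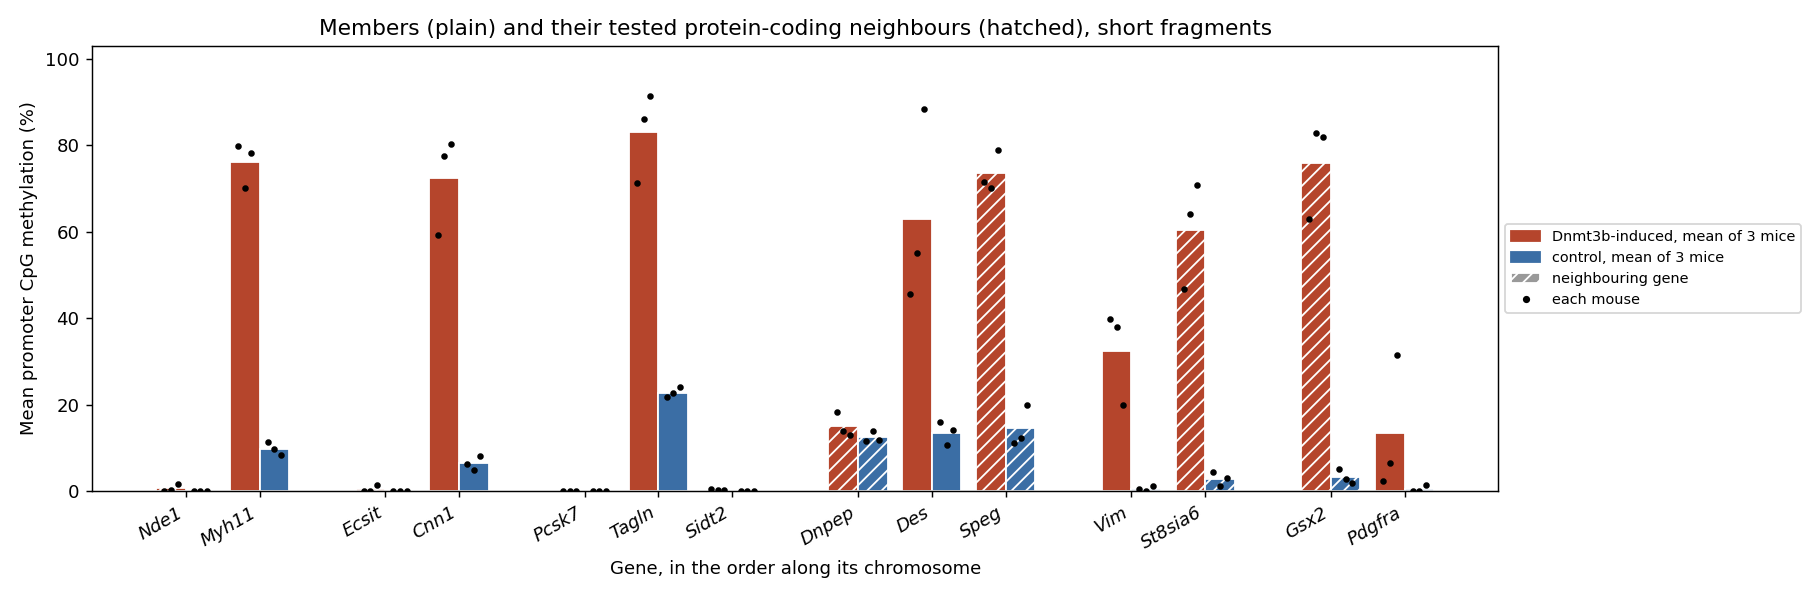
Mean promoter methylation (%) in short fragments of 6 members (plain bars) and their tested neighbours (hatched bars), in the order along each chromosome, red for induced and blue for control mice, with a black point for each mouse. The neighbours of Myh11, Cnn1 and Tagln stay under 1% on average beside members at 72.4% to 83.0% in induced mice, whereas Speg, St8sia6 and Gsx2 reach 60.5% to 75.9%.

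The share of genes that rose is given by the number of CpGs in the RefSeq window, for the 6375 of 10027 (short) and 3814 of 6127 (long) tested genes with exactly 1 window, with no test of a trend. Among genes with 0 to 9 CpGs in the window 43.6% of 521 rose in the short fraction, against 28.1% of those with 10 to 19, 22.3% of those with 20 to 29 and 23.6% of those with 30 or more. In the long fraction the shares were 37.0%, 24.8%, 20.3% and 17.7% in the same order of CpG number. Cnn1 with 6 and Pdgfra with 5 CpGs (in the 1 RefSeq window found, not tied to either listed promoter) fall in the first class, and Des and Vim with 11 each fall in the second. The part of CpG number in the members' change was not tested.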

How the data were processed

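Reduced representation bisulfite libraries of 6 mice were read as deposited by the authors: 1 table per library with the mean CpG methylation fraction (0 to 1) per gene and per RefSeq promoter, per the file headers. Per the labels' protocols, MspI digestion and size selection were followed by bisulfite treatment, PCR and sequencing on a Genome Analyzer II. The sources used here do not give the conversion rate, the coverage filter, the promoter window, the build or the aligner. The tables hold no read numbers, so depth is unknown, no counting interval can be given, and 0% can stand for few reads. Short-fragment libraries listed 10358 to 10838 genes and long-fragment libraries 7278 to 8108. The gene value equalled the mean of its promoters within 0.005 points. Any pair of libraries of 1 fraction had at most 1.517% of values above 0 in common. Of the gene IDs 99.82% were in the RefSeq table of GRCm38.p6.

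Fractions were multiplied to percent. Genes that all 6 libraries of a fraction listed entered limma 3.58.1 (R 4.3.3; lmFit and eBayes), adjusted by Benjamini-Hochberg over 10027 (short) or 6127 (long) genes, with a threshold of 0.05; this is the adjusted p in the text unless another fit is named. Intervals are the fit's 95% intervals. With 3 against 3 mice an exact permutation test cannot go below 0.10 and was not used. The interaction fit had mouse as a random block (consensus correlation 0.0674), because the series design splits each mouse into 2 fractions. The 2 libraries of a mouse were matched by the number in the sample titles, which is an assumption. Their deviations correlated at 0.198, 0.0559 and 0.394 (induced) and 0.294, 0.613 and 0.29 (control). Short and long libraries with different numbers were not compared, so these correlations do not test the matching. The fit was tested on simulated data: it returned the differences put in, but its false calls were more than the adjusted p aims at. Far fewer genes were raised there than rose in the data, and the share of false calls depends on this, so that share is not known for these data. Calls close to the threshold should be read as less sure than their adjusted p says. The recovery it had to reach was lowered after a first mark was missed. Python 3.11.15 with pandas 2.3.3 and matplotlib 3.10.9 made summaries and figures.

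The members and lists were chosen with earlier results of these data known. Per list and fraction, up to 4 genes past the threshold with the largest differences were named. Up to 2 that did not pass, with the smallest differences, were named too. So was every calponin, transgelin and PDGF relative. Smtn, Myocd, Fn1, Nefh and the epithelium genes were named after their values were seen. The same holds for the other smooth muscle genes said to have risen among short fragments. Alternatives were another scale, another filter, each promoter, another variance model, 1 fit over both fractions, the mean of both fractions, a replicate block and leaving out each library. In the interaction fit each mouse was left out with both of its libraries.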

Additional observations from a re-analysis of the deposited data

How the results depend on the processing

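Depth is unknown, 3 mice a group limit the precision, and no alternative reversed a member's own change. Of 867 values of 71 named results, 762 kept direction and side of the threshold. Leaving out 1 library, which leaves 5 for the fit, gave 3 to 6 member calls among short (6 with all libraries) and 0 to 3 among long fragments (3 with all). It gave 2227 to 3029 and 885 to 1528 genes called (2773 and 1422 with all). In the interaction fit both libraries of 1 mouse were left out at a time, which gave 125 to 441 genes (250 with all). The Pdgfra interaction had adjusted p = 0.266, 0.278 and 0.283 without control mouse 1, 2 or 3, and 0.019, 0.172 and 0.00869 without induced mouse 1, 2 or 3. Replicate numbers name different mice in the 2 groups, and deviations of same-numbered libraries correlated at -0.0498 to 0.0736 across genes. With the number as a replicate block, 3 short and 0 long members and 2114 and 652 genes were called. In 1 fit over both fractions 1575 of 5309 genes and 2 of 3 members were called for short fragments, with fewer genes tested. On the mean of both fractions Pdgfra differed by 39.7 points (adjusted p = 0.0363) and Des by 55.8 points (adjusted p = 0.0236). For Pdgfra this mean is taken over different promoters, because its fractions list different ones. For Des it is taken over fragments that can read different CpGs of 1 promoter.

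Among the named results, direction turned only for differences that had not passed the threshold. On the arcsine scale the adjusted p was 1 for Mkl2 and 0.976 for Ppp1r12a (short) and 0.849 for Lmna (long). Lmna had 0.586 at 1 of its promoters and 0.725 on the mean of both fractions. Over the libraries left out, the adjusted p ran from 0.679 to 1 for Mkl2, 0.626 to 1 for Ppp1r12a, 0.309 to 1 for Pcdh18 and 0.502 to 0.917 for Lmnb1 (short), and from 0.509 to 0.872 for Mkl1, 0.938 to 1 for Lmnb1, 0.333 to 1 for Lmna and 0.674 to 0.96 for Myh9 (long). Over the mice left out it ran from 0.403 to 0.946 for the Vim interaction, which was -8.00 points without induced mouse 3. The cause was not tested.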
